A study of Rattus norvegicus with 20 samples.

Results

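The genes described here are the nuclear-encoded subunits of the mitochondrial respiratory chain and ATP synthase, measured in rat foetal testes after the mother had received 1 of 4 plasticiser-related compounds or vehicle. Members were every array probe whose gene name matched a fixed pattern of subunit names (Nduf with a, b, c, s or v, Sdha to Sdhd, Uqcr, Cox4 to Cox8, Atp5, Cycs and Cyc1). The pattern used names alone and no measured value. It took 85 of 41012 probes, which carry 72 of 35737 gene names.

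The 4 treated groups were foetal testes of male Han Wistar rats whose dams received DEHP, MEHP, TOTM or EHO by gavage at 500 mg/kg a day from gestation day 12 through 19, and the control dams received corn oil. Each group had 4 arrays, and each RNA sample was a pool from at least 3 pups of a litter. DEHP is a diester of phthalic acid, MEHP is its monoester and first metabolite, and TOTM is tris(2-ethylhexyl) trimellitate. The labels give EHO by these letters alone. The labels do not say whether the 4 arrays of a group came from 4 different litters, so the p-values measure the spread between these samples. Testes were whole, and in such bulk RNA fewer cells of a type and less RNA per cell cannot be told apart.

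The chain passes electrons from NADH through complex I, or from succinate through complex II, to complex III, cytochrome c and complex IV, and the proton gradient that this builds drives ATP synthesis by complex V. Most subunits are encoded in the nucleus and imported, and a small core is encoded in mitochondrial DNA, which the member list leaves out. In the foetal testis, Leydig cells also use mitochondria for the first step of steroid synthesis, in which cholesterol is cleaved inside the organelle. DEHP and MEHP are known to lower that steroid synthesis in foetal rats.

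By role, the 72 genes were 30 of complex I, 4 of complex II, 6 of complex III, 12 of complex IV, 13 of complex V and cytochrome c (Cycs). A further 6 matched the pattern without being subunits of a mature complex. They were Cox4nb (now Emc8), the complex I assembly factor Ndufaf1, Atp5s (now Dmac2l), the supercomplex factor Cox7a2l, Cox6c1, which RefSeq lists under the transcribed pseudogene Cox6c-ps1, and Cox6b, whose probe is described as an uroplakin Ia-like gene. Of the 72 genes, 62 had 1 probe and 10 had several, and of those the brightest probe, by mean signal, was used. Signals are given as levels, meaning log2 processed signal minus the 75th percentile of the same array, and a fold change is the difference of such levels between group means.

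The chain was well measured. Of the 85 probes, 75 were well above background on all 20 arrays and none was saturated. A gene passed the filter if all arrays of some group had its probe well above background, and 71 of the 72 genes passed. The exception was Ndufs4, a complex I subunit that was well above background on 1 array. Against control, 63 of these 71 had values to test. For the other 8 the probe used lacked any control value, because its spots were marked as non-uniform on all 4 control arrays.

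Arrays of the EHO group had 46.1 to 63.5% of spots above background, against 63.9 to 79.8% on the arrays of the other 4 groups. Each group lay on its own slide, and all were scanned on 1 day, and the effect of a slide cannot be told apart from that of its compound. MEHP arrays 1 and 2 differed by 0.783 times the noise between repeated spots, where the median for 2 arrays of a group was 2.29, and they were counted as 1 sample (n = 3 for MEHP and 4 for the other groups). Defining markers of Sertoli cells (4 of 4 on the array), fetal Leydig cells (5 of 5) and gonocytes (4 of 4) were all measured, as the labelled tissue calls for. So were markers of striated muscle (8 of 8), heart (5 of 5), mesonephric duct (4 of 4), blood (2 of 2), adrenal cortex (3 of 5) and brown fat (1 of 2). Detection alone thus does not set testis apart from other tissue. Control 2 and MEHP 3 lay within 1.29 times the spot noise of each other, closer than the usual pair of arrays of 1 group.

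With DEHP the chain lay close to control. None of the 63 members tested was called at an adjusted p under 0.05 (limma, Benjamini-Hochberg over all 23894 genes), in a comparison where 0.00419% of all genes were called. An unadjusted p under 0.05 was found for 1 member (1.59%), and for 2.42% of all genes. The median log2 fold change was -0.01 over members and -0.04 over all genes. Single members lay between -0.46 and 0.28. By complex the medians were 0.00 for complex I, -0.11 for complex II, 0.16 for complex III, -0.02 for complex IV and -0.02 for complex V.

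The member with this p was Cox6a2, the heart and muscle isoform of subunit VIa of cytochrome c oxidase. Its levels were -0.78, -0.85, -0.83 and -1.05 in DEHP testes, against -0.46, -0.53, -0.65 and -0.67 in control testes. All 4 DEHP values lay below all 4 control values, and the difference of -0.30 ± 0.14 (SE) had an unadjusted p of 0.0463 and an adjusted p of 0.9999. Summed striated muscle markers, which share tissues with this isoform, had levels of 1.97 to 2.30 in DEHP testes and 2.03 to 2.80 in control testes, and their part in the Cox6a2 value was not tested. The largest differences in the other complexes were 0.28 ± 0.16 for Atp5f1, the peripheral stalk subunit b of ATP synthase, and 0.26 ± 0.18 for Ndufv1, the flavoprotein that binds NADH. Complex III gave 0.20 ± 0.14 for Uqcrh, the hinge protein, and 0.16 ± 0.10 for cytochrome c1 (Cyc1), and complex II gave -0.13 ± 0.15 for the membrane anchor Sdhd. Each of these had an adjusted p of 0.9999. For Uqcrh the spot on control 2 was marked and set aside, and with marked spots kept the value was 0.02.

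MEHP gave the same count. Of 63 members, 0 were called, where 0.975% of all genes were. None had an unadjusted p under 0.05, against 5.29% of all genes. The member median was -0.05, against -0.05 over all genes. Among the larger differences were 0.34 ± 0.22 for Cox5a, a matrix-side subunit of cytochrome c oxidase, and 0.29 ± 0.18 for Sdhc, a membrane anchor of succinate dehydrogenase. Uqcrc2, a core protein of complex III, gave -0.23 ± 0.22. Each of these had an adjusted p of 0.977.

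For Cox5a the levels were 4.48, 4.54, 5.26 and 4.61 in MEHP testes, against 4.22, 5.03, 4.17 and 4.39 in control testes. MEHP 3 and control 2 were the highest arrays of their groups, and the groups overlapped. Atp5j, coupling factor 6 of ATP synthase, had levels of 5.46, 5.47, 5.42 and 5.31 in MEHP testes and 5.60, 5.68, 5.68 and 5.39 in control testes. The difference was -0.19 ± 0.11 with an adjusted p of 0.977. Quantile normalization turned it into a call, at -0.38 with an adjusted p of 0.0360.

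TOTM called 0 of 63 members, where 0.00837% of all genes were called. The member median was -0.04 and that of all genes -0.04. An unadjusted p under 0.05 was found for 2 members (3.17%), Ndufv1 and Uqcrc1, and for 8.23% of all genes. Ndufv1 had levels of 3.52, 3.35, 3.60 and 3.54 in TOTM testes, against 3.1, 2.74, 3.39 and 3.03 in control testes, a difference of 0.44 ± 0.18 with an adjusted p of 0.576. The lowest TOTM value lay below the highest control value.

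Uqcrc1, the other large core protein of complex III, had levels of 2.63, 2.59, 2.73 and 2.85 in TOTM testes and 2.36, 2.24, 2.58 and 2.18 in control testes. The groups did not overlap, and the difference was 0.36 ± 0.14 with an adjusted p of 0.553. Atp5b, the catalytic beta subunit of ATP synthase, gave 0.28 ± 0.14 (adjusted p = 0.616). On the low side Sdhd gave -0.31 ± 0.15 (adjusted p = 0.610), with levels of 4.03, 3.90, 4.07 and 4.12 in TOTM testes and 4.12, 4.71, 4.28 and 4.25 in control testes. The highest TOTM value lay just under the lowest control value. Cox5a gave -0.29 ± 0.20 with TOTM.

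In these 3 comparisons the intervals bound the difference between groups under the main scaling, for the 63 members with control values. The 8 members without such values are not covered. Slide and compound cannot be told apart, so the intervals do not bound the effect of a compound. The 95% interval of the fold change lay inside ±0.5 on the log2 scale for 51 of 63 members with DEHP, 46 with MEHP and 42 with TOTM. Over all genes the shares were 42.4% with DEHP, 34.1% with MEHP and 34.1% with TOTM. Among members well above background on all arrays, 50 of 59 had such an interval with DEHP, where 64.3% of all genes detected that well did. All 63 point estimates lay within ±0.5 in each of these comparisons, against 98.5% of all genes with DEHP, 93.2% with MEHP and 95.2% with TOTM. The median within-group SD was 0.181 for the 56 detected on all arrays and complete, against 0.214 for 14605 genes treated the same way. Cox6c1 varied most, with an SD of 0.868, and Cox4i2 least, with 0.0961.

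**Figure D1:**
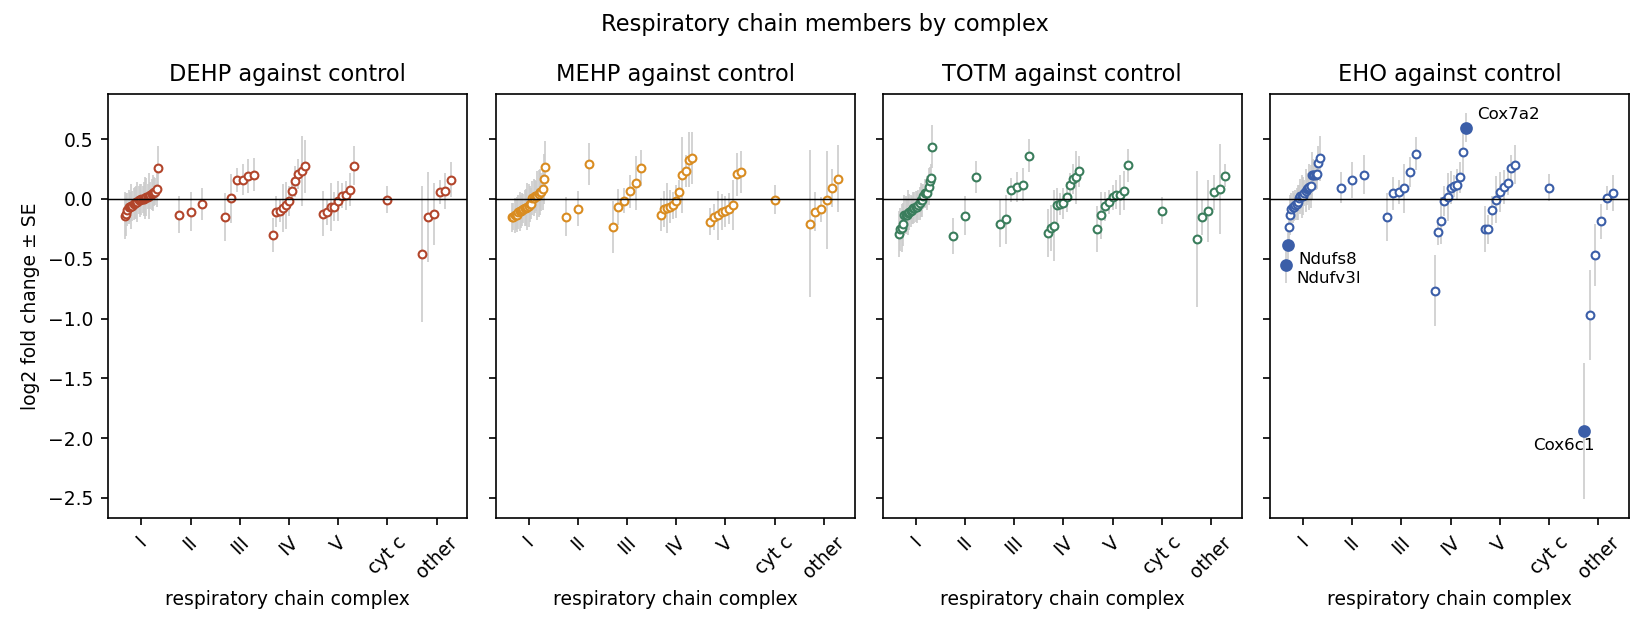
Log2 fold change of each tested member against control (vertical axis, with SE as grey bars) by complex (horizontal axis, members sorted within each complex) for the 4 compounds, with filled points at an adjusted p under 0.05. The 63 members lie between -0.46 and 0.44 with DEHP, MEHP and TOTM, and 4 members are filled with EHO, of which Cox6c1 is farthest from 0 at -1.94.

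With EHO 4 members were called. Cox7a2, the widely expressed isoform of subunit VIIa of cytochrome c oxidase, was higher in EHO testes, and the complex I genes Ndufv3l and Ndufs8 and the pseudogene transcript Cox6c1 were lower. These 1 higher and 3 lower calls were 6.35% of the 63 members, in a comparison where 24.8% of all genes were called (1610 higher and 4325 lower). An unadjusted p under 0.05 was found for 10 members, or 15.9%, and for 45.4% of all genes. Among genes well above background on all arrays the shares called were 5.08% of 59 members and 16% of all genes. The member median was 0.05, against -0.17 over all genes, and 58 of 63 members lay within ±0.5, against 61.4% of all genes. Among genes well above background on all arrays these contrasts were smaller, with medians of 0.06 for members and 0.05 for all genes, and with 57 of 59 members and 85.6% of all genes within ±0.5. Under quantile normalization the order of the medians turned, at -0.09 for members and -0.04 for all genes. Leaving out 1 array at a time gave between 1 and 11 calls, the 11 without EHO 3. The shares of all genes called in those fits are not given here, so these counts cannot be set against them. Markers of other tissues were also measured with EHO. Summed adrenal cortex markers had levels of -0.92 to 0.39 in EHO testes and 0.70 to 1.13 in control testes, with 2 of the 3 measured markers called lower, and summed blood markers had 4.42 to 5.76 in EHO testes and 4.0 to 4.54 in control testes, with 0 of 2 called. Their part in the EHO values of the chain was not tested.

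Cox7a2 rose in EHO testes. Its levels there were 4.88, 4.65, 4.46 and 4.35, against 3.93, 3.93, 4.18 and 3.92 in control testes. Every EHO value lay above every control value, and the fold change was 0.60 ± 0.12 (adjusted p = 0.00995). The call held with any 1 array left out. It was lost with arrays weighted by quality (0.45, adjusted p = 0.0791) and in a fit of the EHO and control arrays alone (0.60, adjusted p = 0.152). With EHO 1 and 2, the arrays with the fewest spots above background, left out together, the fold change was 0.42 with an adjusted p of 0.160. Cox7a2 was also above control with the other compounds, at 0.21 ± 0.12 for DEHP, 0.24 ± 0.13 for MEHP and 0.17 ± 0.12 for TOTM, without passing the test (adjusted p of 0.9999, 0.977 and 0.792). Its probe lies on chromosome 8 at positions 84813316 to 84813375 of rn4.

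Ndufv3l, which RefSeq lists as Ndufv3, encodes a small subunit of the NADH-binding module of complex I. Its levels were 2.49, 2.76, 2.17 and 2.60 in EHO testes, against 3.09, 3.32, 3.04 and 2.77 in control testes. The groups did not overlap, though EHO 2 and control 4 differed by little, and the fold change was -0.55 ± 0.15 (adjusted p = 0.0299). The call was lost without control 1 (-0.54) or EHO 1 (-0.54). With DEHP, MEHP and TOTM the fold change was 0.08, -0.10 and 0.10. The probe lies on chromosome 20 at 9952677 to 9952736 of rn4.

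Ndufs8 encodes an iron-sulphur subunit of complex I that hands electrons on toward ubiquinone. Its levels were 1.73, 1.65, 1.46 and 1.68 in EHO testes, against 2.00, 2.17, 2.11 and 1.80 in control testes, again with no overlap. The fold change was -0.39 ± 0.12 (adjusted p = 0.0340), and it was -0.01, -0.13 and 0.05 with DEHP, MEHP and TOTM. The call was lost without control 1 (-0.40), control 2 (-0.34), control 3 (-0.36), EHO 1 (-0.42) or EHO 2 (-0.39). A further Ndufs8 probe, which overlaps the first one (chromosome 1, 206435873 to 206436371 against 206435899 to 206436397 of rn4), gave -0.39 ± 0.12 as well and is no independent measurement.

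Cox6c1 was low on 2 of the 4 EHO arrays. Its levels were -4.64, -4.10, -1.45 and -1.43 in EHO testes, with the first 2 not well above background, against -0.65, -1.57, -1.37 and -0.27 in control testes. EHO 3 lay inside the control range and EHO 4 lay there too, so the groups overlapped. The fold change was -1.94 ± 0.57 (adjusted p = 0.0324), and without EHO 1 and 2 it was -0.47 with an adjusted p of 0.493. The call was also lost without control 1 (-1.84), control 4 (-1.71), EHO 1 (-1.36) or EHO 2 (-1.54) alone. The same arrays were low for 2 other dim members. Cox8h, named for the heart isoform of subunit VIII, had levels of -3.35, -3.00, -2.25 and -1.87 in EHO testes and -1.78, -1.90, -1.88 and -1.85 in control testes (-0.77 ± 0.30, adjusted p = 0.0605). The other 2 probes named Cox8h lie in the opposite orientation by their coordinates, so they need not measure the same transcript. They gave -0.82 (adjusted p = 0.0442) and -1.02 (adjusted p = 0.0557) in a fit of all probes. Neither was well above background on EHO 1 or EHO 2. The probe named Cox6b had -4.20, -3.86, -2.32 and -1.90 in EHO testes and -1.93, -2.52, -2.19 and -1.77 in control testes (-0.97 ± 0.38, adjusted p = 0.0621).

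**Figure D2:**
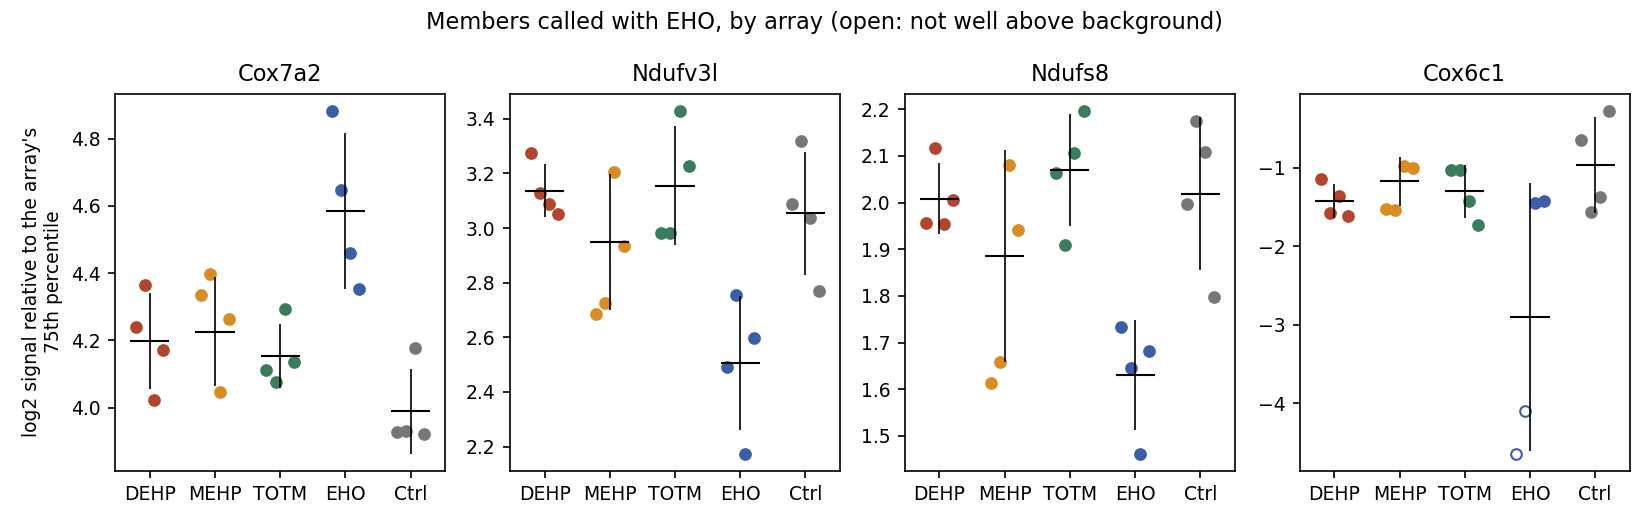
Levels (log2 signal over the array's 75th percentile) of the 4 members called with EHO, on each array of the 5 groups, with horizontal bars for group means and vertical bars for SD (n = 3 for MEHP, with arrays 1 and 2 averaged, and 4 for the others). All 4 EHO arrays lie above control for Cox7a2 and below control for Ndufv3l and Ndufs8, whereas for Cox6c1 EHO 1 and 2, drawn open as not well above background, lie apart from EHO 3 and 4.

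Of the members just outside the threshold, Uqcrh gave 0.38 ± 0.14 with EHO (adjusted p = 0.0532), from levels of 6.59, 6.46, 6.01 and 6.28 in EHO testes and 5.89, 6.08 and 5.90 on the 3 control arrays left. The marked spot set aside on control 2 had 6.68, above every EHO array. With marked spots kept the Uqcrh value was 0.20 (adjusted p = 0.361). Cox4i1, the common isoform of subunit IV, gave -0.27 ± 0.11 (adjusted p = 0.0619). Its levels were 3.87, 3.83, 3.51 and 3.84 in EHO testes and 4.04, 4.10, 4.16 and 3.85 in control testes. Atp5j gave 0.26 ± 0.11 (adjusted p = 0.0738).

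The direction of several smaller EHO values turned with the scaling of the arrays, among them Ndufs8 (0.15 with array-median scaling), and that of Cox7a2 and Cox6c1 did not, though Cox6c1 gave -0.60 after normexp with quantile normalization. Scaling to the 75th percentile of probes detected on all arrays gave 1 higher and 6 lower calls among the 63 members. There 28.1% of all genes were called. Quantile normalization gave 1 higher and 9 lower, as did normexp with quantile normalization, where 18.5% and 17.5% of all genes were called. Scaling to the array median gave 11 higher and 1 lower, where 34.8% of all genes were called (5769 higher and 2544 lower). The median of all genes moved with the scaling as well, between -0.32 and 0.37, beside member medians of -0.10 and 0.59 under the same 2 scalings. Cox7a2 was called higher and Cox6c1 lower under all 5 scalings, and Ndufv3l and Ndufs8 were called lower under 4 of the 5, the array median being the exception. Calls that the other scalings added on the low side included Cox4i1 and, of ATP synthase, the alpha subunit Atp5a1 and Atp5g3. The complex I genes Ndufs6, Ndufa6 and Ndufb9 were added there as well.

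The promoters of 3 called genes are shown to set the 1 higher gene beside 2 lower ones for the strings of factors known to drive respiratory chain genes. NRF-1 and GABP (also called NRF-2) are the classic nuclear respiratory factors, and YY1 is a further factor that binds many such promoters. Each promoter is 300 bases of RefSeq sequence (GRCr8), from 250 bases before the annotated start to 50 after it. Capitals mark the match: the GABP string CCGGAAG on the opposite strand in Cox7a2 (chr8:89601100-89601399, minus strand) and Ndufs8 (chr1:210573649-210573948, minus strand), and the NRF-1 string, GCGCA and GCGC around 1 base of any kind, in Ndufv3l (chr20:9613536-9613835, plus strand).
Cox7a2: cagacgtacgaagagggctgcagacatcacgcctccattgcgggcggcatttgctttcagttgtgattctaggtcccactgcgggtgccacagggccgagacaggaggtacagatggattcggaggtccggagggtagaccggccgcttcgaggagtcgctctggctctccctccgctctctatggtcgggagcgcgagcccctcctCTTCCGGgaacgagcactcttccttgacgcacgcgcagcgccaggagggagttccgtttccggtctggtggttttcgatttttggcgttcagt
Ndufs8: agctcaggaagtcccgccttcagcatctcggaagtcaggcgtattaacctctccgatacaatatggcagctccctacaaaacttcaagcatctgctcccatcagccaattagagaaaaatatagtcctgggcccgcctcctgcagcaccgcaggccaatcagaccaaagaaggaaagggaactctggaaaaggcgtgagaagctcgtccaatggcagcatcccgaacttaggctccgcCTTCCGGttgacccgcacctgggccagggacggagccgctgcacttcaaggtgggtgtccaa
Ndufv3l: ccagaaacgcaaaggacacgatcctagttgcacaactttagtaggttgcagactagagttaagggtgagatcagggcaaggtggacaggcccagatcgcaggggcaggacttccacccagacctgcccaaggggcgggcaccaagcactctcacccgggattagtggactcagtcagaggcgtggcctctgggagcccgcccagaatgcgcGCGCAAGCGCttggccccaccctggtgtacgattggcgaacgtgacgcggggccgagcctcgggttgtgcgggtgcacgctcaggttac

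The marked strings start 43 bases before the start in Cox7a2, 12 before it in Ndufs8 and 39 before it in Ndufv3l. Only 1 of the NRF-1, GABP and YY1 strings matched in each of these windows, so none of these 3 overlapped there. The gene called higher and 1 gene called lower thus held the same GABP string. All 72 member names matched a RefSeq gene, 62 had a promoter, and 57 of those were subunit genes. Searched on both strands, the NRF-1 string was found in 14 of the 57 (24.6%), against 4.71% of 27457 RefSeq promoters. The GABP string was in 17 (29.8% against 9.22%) and the YY1 string AAGATGGC in 13 (22.8% against 3.44%). A TATAAA box was in 4 (7.0% against 14.26%), and CCAAT was in 21 (36.8% against 37.74%). The 57 subunit genes are protein coding. Over the 19005 protein-coding promoters alone the shares were 6.09% for NRF-1, 11.24% for GABP, 3.92% for YY1, 13.10% for TATAAA and 38.41% for CCAAT. A match is a description of these letters and not a site shown to be bound.

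In the comparison with DEHP, EHO differed in 2 of 71 members, where 6.53% of all genes were called. The fold changes there use no control array, but the spread behind each p was estimated over all groups, control included. Atp5j was higher in EHO testes, with levels of 6.05, 5.93, 5.61 and 5.78 against 5.39, 5.54, 5.47 and 5.51 in DEHP testes. The groups did not overlap, and the difference was 0.37 ± 0.11 (adjusted p = 0.0492). Ndufv3l was lower in EHO testes, at -0.63 ± 0.15 (adjusted p = 0.0261), the DEHP levels being 3.27, 3.13, 3.09 and 3.05. No member was called when EHO 1 and 2 were left out together, or without DEHP 1, DEHP 3, DEHP 4 or EHO 1 alone, whereas 13 were called without EHO 3 and 9 without EHO 4. The count was 1 without DEHP 2, EHO 2, control 1, control 3, MEHP 1, MEHP 3, MEHP 4, TOTM 1, TOTM 2 or TOTM 3. The shares of all genes called in these fits are not given here, so the counts are not a result about the members.

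MEHP against DEHP called 0 of 71 members, where 1.16% of all genes were called. There 1 member (1.41%) had an unadjusted p under 0.05, against 5.55% of all genes. The 95% interval of this difference between the monoester and the diester lay inside ±0.5 for 49 of the 71 members. TOTM against DEHP called 0 of 71, where 0% of all genes were called. No member had an unadjusted p under 0.05, against 2.94% of all genes. There the interval lay inside ±0.5 for 50 of 71. All doses were equal by mass, not by moles.

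Several subunits have isoforms that differ between tissues. Under the main scaling Cox4i2, Cox6b2, Cox6a2 and Atp5g3 did not pass the test against control with any compound. With EHO, Atp5g3 was called lower under quantile normalization (-0.51, adjusted p = 0.0226) and after normexp with it (-0.51, adjusted p = 0.0116). Cox4i2 (0.65, adjusted p = 0.0379) and Cox6b2 (0.72, adjusted p = 0.0482) were called higher with EHO under array-median scaling. Cox4i2, the lung-enriched isoform of subunit IV, gave -0.10, 0.05, -0.04 and 0.11 with DEHP, MEHP, TOTM and EHO. Cox6b2, the testis isoform of subunit VIb, gave 0.15, -0.02, 0.23 and 0.18, with levels of 0.40 to 0.75 on the control arrays. Cox6a2 gave -0.08, -0.05 and 0.10 with MEHP, TOTM and EHO. Atp5g3, which with Atp5g1 and Atp5g2 encodes the same c subunit of the ATP synthase ring, gave -0.12, -0.05, -0.25 and -0.25. A second Atp5g3 probe, not called either, gave -0.15, 0.31, -0.19 and 0.10, with the opposite sign for MEHP and EHO. Summed heart markers had levels of 4.76 to 5.27 in EHO testes, against 5.28 to 5.84 in control testes, with 0 of 5 called. Of 8 muscle markers 1, Ckm, was called lower with EHO (-1.08). Their part in the values of the muscle and heart isoforms was not tested.

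Cytochrome c itself, the mobile carrier between complexes III and IV, had no call with any compound. Its brightest probe gave -0.01, -0.01, -0.10 and 0.09 with DEHP, MEHP, TOTM and EHO. Of its other 2 probes, both well above background on all 20 arrays, 1 gave 0.02, 0.11, -0.07 and 0.30 (adjusted p = 0.0879 with EHO in a fit of all probes), and the other gave 0.03, -0.04, -0.09 and 0.15. By the brightest probe the levels of Cycs were 3.74, 3.88, 3.64 and 3.95 with DEHP, 3.68, 3.75, 3.94 and 3.76 with MEHP, 3.66, 3.69, 3.76 and 3.74 with TOTM and 4.19, 3.92, 3.73 and 3.78 with EHO, against 3.70, 3.97, 3.86 and 3.71 in control testes. All groups overlapped. The sign of such small values turned with the scaling and with single arrays.

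Single arrays had most members high or most members low. Over the 56 members complete on all arrays, the median difference from the control means was 0.24, 0.12, -0.16 and -0.02 on the EHO arrays and -0.10, -0.11, 0.02 and 0.08 on the TOTM arrays, against -0.09, 0.22, 0.02 and -0.15 on the control arrays. It was 0.04, 0.07, -0.07 and -0.07 with DEHP and -0.19, -0.12, 0.12 and -0.05 with MEHP. The spread within control was thus as wide as that within any treated group except EHO. On TOTM 4, 54 of 56 members lay above their own group mean and on TOTM 1 only 3 did, while on control 2 it was 49 and on control 4 it was 2. All genes leaned the same way on these arrays, with 63.7% above their group mean on TOTM 4, 38.2% on TOTM 1, 58.5% on control 2 and 36.6% on control 4.

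These array medians changed with the scaling. With the percentile taken over probes detected on all arrays, the medians were -0.05, -0.12, -0.20 and -0.07 with EHO and -0.04, -0.05, -0.07 and -0.04 with TOTM, against 0.03, 0.05, -0.03 and -0.06 in control. They were -0.02, -0.01, -0.10 and -0.13 with DEHP and -0.23, -0.24, 0.00 and -0.12 with MEHP. Under quantile normalization 32 of 56 members lay above their group mean on TOTM 4 and 34 on TOTM 1, with 30 on control 2 and 21 on control 4. With the percentile over probes detected on all arrays, 46 of 63 members were below control with DEHP, 51 with MEHP, 38 with TOTM and 46 with EHO. With the main scaling the counts were 35, 39, 37 and 23. All genes moved with this percentile too, with medians of -0.10, -0.14, -0.06 and -0.32 with DEHP, MEHP, TOTM and EHO, beside member medians of -0.06, -0.15, -0.06 and -0.10.

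**Figure D3:**
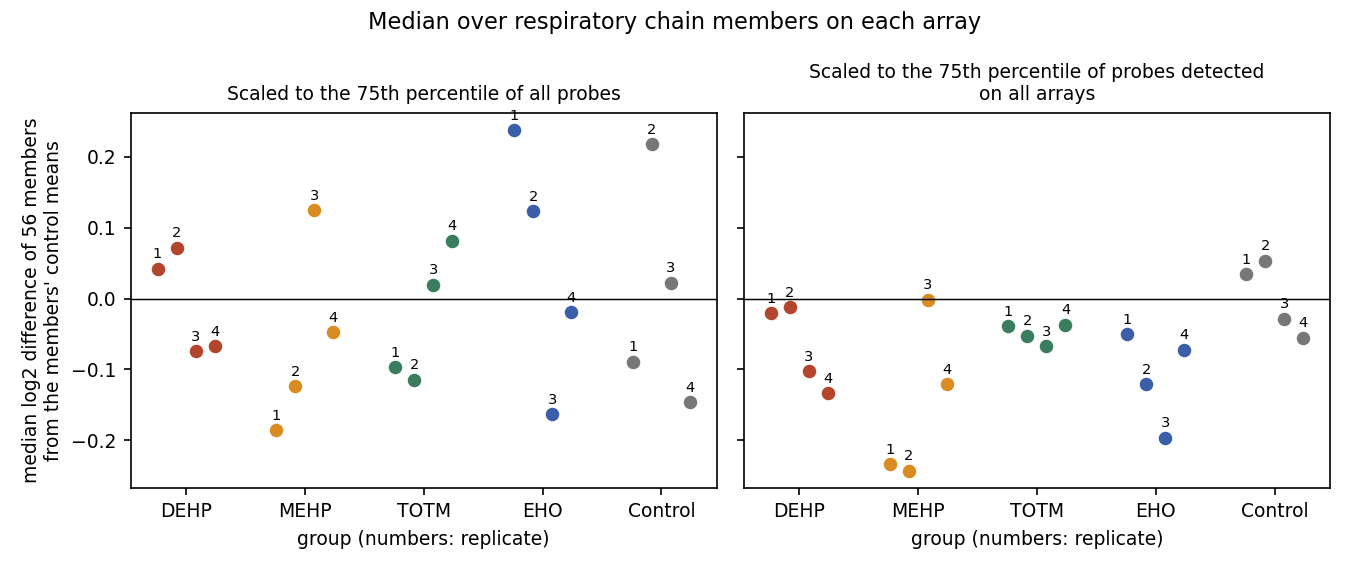
Median over 56 members of the log2 difference from the members' control means (vertical axis) on each array of the 5 groups (horizontal axis, numbers give the replicate), scaled to the 75th percentile of all probes (left) or of the probes detected on all arrays (right). Control 2 stands at 0.22 on the left and 0.05 on the right, and EHO 1 at 0.24 and -0.05.

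The strongest signals of the chain could not be compared in full. Of the member spots, 39 were marked as non-uniform on control arrays and 0 on the other 16 arrays. Control arrays had 539 to 551 marked spots each, against 66 to 144 on the others. Among the 470 probes with a log2 control signal above 14, 69.1% were marked on all 4 control arrays and none on all other arrays. The 8 members whose probe in use lost every control value were Ndufb4 and Ndufb8 of complex I, the flavoprotein Sdha of complex II, Cox6a1 of complex IV, and Atp5e, Atp5g1, Atp5g2 and Atp5i of complex V. Atp5o and Cox8a kept 1 control array and Uqcrh kept 3.

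When marked spots were kept, 71 members were tested and Sdha stood out. Its mean level was 6.04 ± 0.09 with DEHP (SD, n = 4), 6.12 ± 0.19 with MEHP (n = 3), 5.94 ± 0.09 with TOTM and 6.04 ± 0.13 with EHO (n = 4 each), against 5.38 ± 0.23 in control testes (n = 4). Every treated array lay above the highest control array, which had 5.72. The fold changes were 0.66 with DEHP (adjusted p = 0.0225), 0.74 with MEHP (0.00523), 0.56 with TOTM (0.0654) and 0.66 with EHO (0.00471). All of these rest on control spots that the authors' software marked. In the authors' deposited table, whose scale and test are not given, the same Sdha probe is listed as lower, with signed fold changes of -1.09 for DEHP, -1.10 for TOTM and -1.13 in the block headed EH.

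Atp5i, subunit e of ATP synthase, gave 0.73 with DEHP, 0.75 with MEHP, 0.45 with TOTM and 0.66 with EHO, and was called with EHO alone (adjusted p = 0.0380). All 4 TOTM arrays (7.37 to 7.54) lay below control 2, at 7.59, so these groups overlapped. The authors' deposited table lists it as lower, at -1.30 for MEHP, -1.37 for TOTM and -1.30 under EH. Signs also differed from that list for Ndufb4 with DEHP, MEHP, TOTM and, if EH stands for EHO, with EHO. The same held for Atp5e with DEHP and MEHP, Atp5g1 with TOTM, and Atp5g2 with DEHP and TOTM. Signs were alike for Cox6a1 with DEHP and Atp5e with TOTM. Atp5o (0.64, adjusted p = 0.0293) and Cox8a (0.54, adjusted p = 0.0249) were called with EHO as well, while Atp5g2 gave -0.17, -0.31, -0.17 and -0.20 with DEHP, MEHP, TOTM and EHO and was not called. A second Atp5g2 probe had no marked spot, with levels of 5.24, 5.13, 5.02 and 5.05 in EHO testes, against 4.69, 4.94, 5.0 and 4.80 in control testes. It gave the opposite sign with each compound, at 0.16, 0.05, 0.16 and 0.25 with DEHP, MEHP, TOTM and EHO, and was not called either (adjusted p = 0.0705 with EHO in a fit of all probes). In all, with marked spots kept, DEHP had 1 call among 71 members (0.293% of all genes), MEHP 1 (1.33%), TOTM 0 (0.405%) and EHO 5 higher and 3 lower (25.5%). Whether these differences belong to the tissue or to the control slide cannot be told apart.

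**Figure D4:**
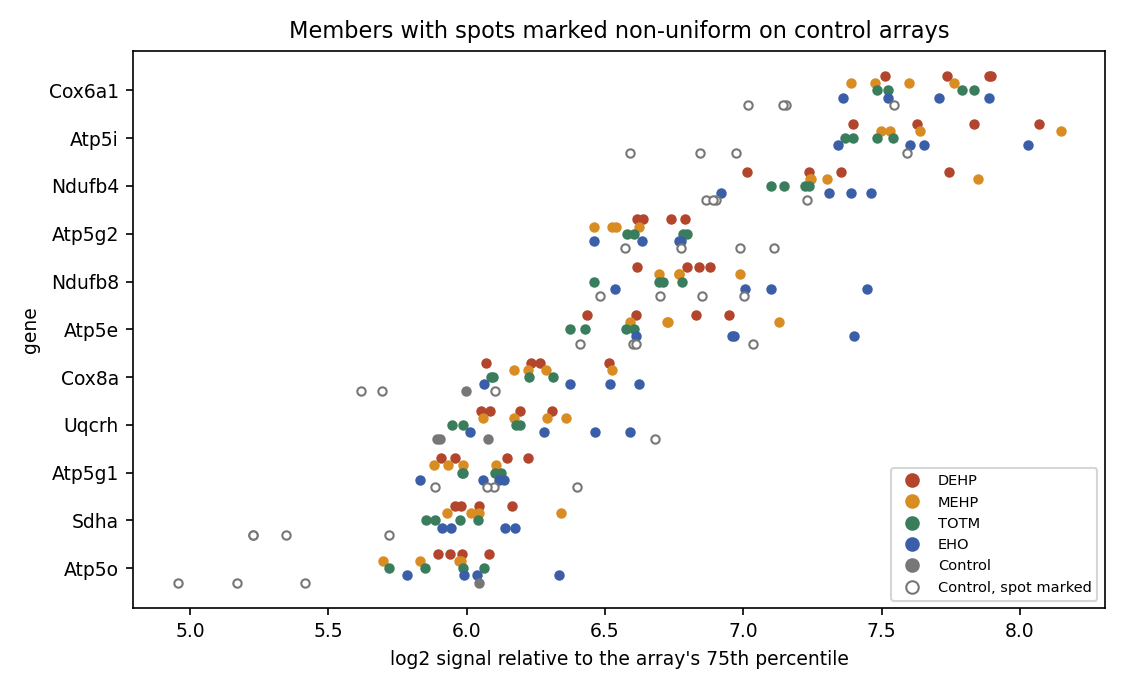
Levels (log2 signal over the array's 75th percentile) of the 11 members with spots marked as non-uniform on control arrays, 1 point per array, with open circles for marked control spots. For Sdha the 4 control arrays (5.23 to 5.72) lie below all 16 treated arrays, and for Atp5g2 the groups overlap.

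The probes of Ndufc2, a membrane-arm subunit of complex I, disagreed. The bright probe, on chromosome 1 at 154642009 to 154642068 of rn4, gave 0.17 ± 0.21 with MEHP and was not called. A dim probe of the same transcript, at 154641288 to 154641951, had levels of -1.79, -1.77, -1.24 and -1.53 in MEHP testes, against -3.09, -4.33, -3.63 and -3.45 in control testes. All 4 MEHP arrays were well above background there, against 1 of 4 TOTM, 0 of 4 DEHP, 0 of 4 EHO and 1 of 4 control arrays. The probe passed the filter through the MEHP arrays alone, so no test is given for it. The probe was not well above background on any DEHP array, so no fold change against DEHP is given. A further probe in the opposite orientation was above background on 0 arrays. By its coordinates the dim probe spans a longer stretch of the assembly than the bright one, and its values were singled out after they had been seen.

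**Figure D5:**
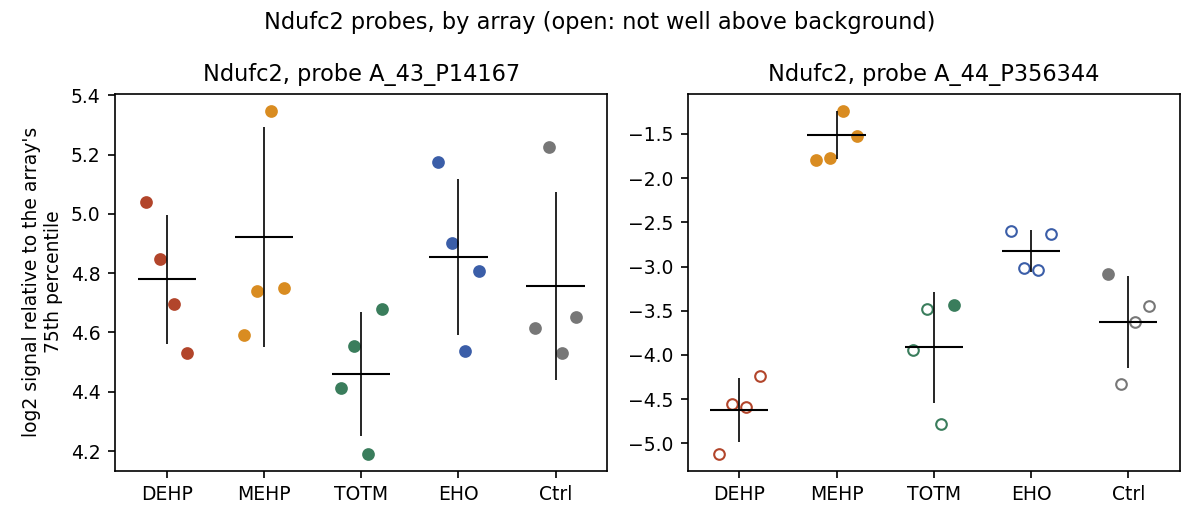
Levels (log2 signal over the array's 75th percentile) of the bright (left) and the dim (right) Ndufc2 probe on each array of the 5 groups, with bars for group means and SD (n = 3 for MEHP, with arrays 1 and 2 averaged, and 4 for the others) and open points where the spot was not well above background. On the right the 4 MEHP arrays lie between -1.79 and -1.24, above every other array, and on the left the groups overlap.

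Other mitochondrial genes also had no calls with DEHP, MEHP and TOTM. None of 15 genes of the citric acid cycle and pyruvate dehydrogenase, 21 carriers and import proteins, 14 regulators, 8 assembly factors and 63 mitochondrial ribosomal proteins was called in those 3 comparisons. With EHO, where 24.8% of all genes were called, 1 citric acid cycle gene was called higher (Pdha1, a subunit of pyruvate dehydrogenase, 0.58). Among carriers 4 were called higher, led by the outer membrane channel Vdac1 (0.56) and the import proteins Timm9 (0.43) and Timm8b (0.42). Among mitochondrial ribosomal proteins 4 were higher, with Mrpl13 at 0.49, and 2 lower, with Mrps2 at -0.97, and the assembly factor Cox15, which makes heme A for complex IV, was lower (-1.10). No regulator was called with EHO, the lowest being Esrrg (-1.31) and Ppargc1a (-0.97). The list medians with EHO were 0.08 for the citric acid cycle, 0.11 for carriers and import, -0.03 for regulators, -0.08 for assembly factors and 0.08 for mitochondrial ribosomal proteins, beside -0.17 over all genes and 0.05 over the genes well above background on all arrays.

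The mitochondrial steroid genes of Leydig cells had medians below 0 with the phthalates. The median over Star, Cyp11a1, Fdx1 and Fdxr was -0.94 with DEHP, -1.04 with MEHP, 0.12 with TOTM and -0.24 with EHO. Star, which carries cholesterol into the organelle, gave -1.53 with DEHP and -1.67 with MEHP. None of the 4 genes was called in any of the 4 comparisons. Summed Leydig markers had levels of 6.59 to 7.30 with DEHP, 5.38 to 7.79 with MEHP, 7.66 to 7.88 with TOTM and 7.19 to 7.65 with EHO, against 7.04 to 7.60 in control testes. The difference between the steroid genes and the chain was not tested.

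The authors' deposited table lists probes past a threshold for each compound. It holds 6 of the 85 member probes for DEHP, 23 for MEHP, 14 for TOTM and 17 in the block headed EH. Those are 7.06, 27.1, 16.5 and 20% of the member probes, where 2.45, 9.33, 8.04 and 10.3% of all probes are listed. Of the listed member probes 4, 22, 10 and 16 are lower for DEHP, MEHP, TOTM and EH, and of all listed probes 501 of 1004, 1641 of 3827, 1498 of 3298 and 1397 of 4210 are lower in the authors' deposited table. For Cox7a2 the authors' deposited table gives 1.42 under EH and 1.3 for MEHP. It gives -1.58 under EH and -1.3 for MEHP for Ndufv3l, and -1.40 under EH and -1.3 for MEHP for Ndufs8. Those under EH have the same signs as for EHO here if EH stands for EHO, which the sources do not state.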

How the data were processed

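Arrays were 1-colour Agilent rat arrays with probe positions on rn4, and the deposited intensity values came from Feature Extraction 9.5.3.1 per the file headers (9.5 per the submitters' processing notes). This deposited intensity (the processed signal) had already been corrected for background by the authors' software. Per probe and compound, the authors' deposited table gives a p-value and a signed fold change, read as a score, and its scaling and test are not given in the sources used here.

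Spots marked as outliers were set aside, repeated spots averaged and the 75th percentile of each array subtracted on the log2 scale. Of 41012 probes, 28129 passed the filter, and 24214 genes were fitted (19 samples, 1 mean per group, limma 3.58.1 in R 4.3.3, 14 residual degrees of freedom). The number of arrays limits the precision. A call is an adjusted p under 0.05 (Benjamini-Hochberg over all genes of a comparison). The steps were tested on simulated data. Comparisons with control share the control arrays. Genes named are the brightest probe and the largest fold change of each complex, called members or the smallest p-values, isoforms, and genes with discordant probes. The members and lists were chosen with earlier results of these data known. Replicate numbers did not pair the samples.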

Additional observations from a re-analysis of the deposited data

Results flagged for a closer look

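Of 120 groups of 4 arrays tested for a single array far from the other 3, 3 had one, where chance marks about 1 in 20. Cox4i1 stood at 3.51 on EHO 3, where the other EHO arrays had 3.83 to 3.87. Cox6a2 stood at -0.12 on TOTM 4, where the other TOTM arrays had -0.85 to -0.74. Cox7a2 stood at 4.18 on control 3, where the other control arrays had 3.92 to 3.93.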

How the results depend on the processing

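Of 1218 alternatives of 36 named results, 1141 kept direction and side of the threshold, 26 lost a call, 11 gained one and 40 changed sign. Leaving out an array outside the 2 groups compared does not change a fold change. Only the 4 members called with EHO had a call to lose, so the 1141 is no measure of robustness. The slide of each group cannot be told apart from its compound, array number limits precision, and marked control spots limit the brightest members. Shares of all genes called with 1 array left out are not given here. Leaving out 1 array gave 0 calls throughout with DEHP, MEHP and TOTM against control and with MEHP and TOTM against DEHP, 1 to 11 with EHO against control and 0 to 13 with EHO against DEHP, and member medians of -0.05 to 0.06 with DEHP, -0.11 to 0.02 with MEHP, -0.09 to 0.02 with TOTM and -0.01 to 0.11 with EHO. Replicate numbers did not pair the samples (40 pairs of arrays, correlations of -0.75 to 0.43), and with the replicate number as a block EHO had 2 calls against control and 0 against DEHP, with 0 in the other comparisons. DEHP and MEHP each had 1 call with outlier spots kept, and MEHP had 1 with quantile normalization or normexp with quantile normalization. In the fit of all probes no member was counted as called with MEHP, against control or DEHP. The dim Ndufc2 probe passed the filter through the MEHP arrays alone and was left out of that count. EHO against control had 12 calls with median scaling, 7 with the percentile over detected probes, 10 with quantile normalization with or without normexp, 8 with outlier spots kept, 1 at 2-fold or more, and 0 with arrays weighted, with EHO 1 and 2 left out, or with arrays of the 2 groups alone, a fit with fewer samples. Of all genes, 34.8% were called with median scaling, 28.1% with the percentile over detected probes and 25.5% with outlier spots kept. The share was 18.5% with quantile normalization and 17.5% with normexp. At an unadjusted p under 0.05 the main setting gave 10 members, or 15.9%, against 45.4% of all genes. EHO against DEHP had 1 call with median scaling, 4 with the percentile over detected probes, 4 with quantile normalization, 5 with normexp, 5 with the filter on all arrays, 4 with all probes, 4 with trended robust variance, 1 with arrays weighted, and 0 with EHO 1 and 2 left out, with arrays of the 2 groups alone or at 2-fold or more. Of the 4 with all probes, 1 was the dim Ndufc2 probe, which was not well above background on any EHO or DEHP array. For EHO against DEHP, 8.84% of all genes were called with median scaling and 5.88% with the percentile over detected probes. The shares were 9.91% with quantile normalization and 8.87% with normexp. The member median became 0.10 for MEHP and 0.59 for EHO with median scaling and -0.11 for EHO with normexp.

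Signs turned as follows, and the cause was not tested. With median scaling Cycs was 0.10 for DEHP and 0.15 for MEHP, and Ndufs8 was 0.15 for EHO. With the percentile over detected probes Ndufc2 was -0.038 for DEHP and Cycs -0.060 for EHO. With quantile normalization Uqcrh was -0.13 for DEHP, -0.14 for MEHP and -0.054 for EHO, Atp5f1 was -0.088 for MEHP and -0.080 for EHO, Ndufc2 was -0.027 for DEHP and Cycs -0.064 for EHO. With normexp Uqcrh was -0.084 for DEHP and -0.081 for MEHP, Atp5f1 was -0.071 for MEHP and -0.13 for EHO, Ndufc2 was -0.0067 for DEHP, Cycs was -0.085 for EHO and Cox8h was -0.037 for MEHP. With EHO 1 and 2 left out Cycs was -0.057 and Sdhc -0.013 for EHO. For DEHP, Cycs was 0.019 with arrays weighted and 0.046 with control 2 and MEHP 3 left out, and for MEHP it was 0.012 with the replicate block. With 1 array left out, Cycs ranged over -0.056 to 0.046 for DEHP, -0.072 to 0.046 for MEHP and -0.00076 to 0.15 for EHO, Ndufc2 over -0.065 to 0.18 for DEHP, Cox6c1 over -0.41 to 0.024 for MEHP and Cox8h over -0.012 to 0.28 for MEHP.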
